A study of Sus scrofa with 8 samples.

Results

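CD72 and CD40 are surface receptors of B lymphocytes. Their mRNA was measured in whole blood from 8 female miniature pigs of the Clawn breed, which were 8 to 9 months old. The SDW group held 4 animals given a feed of equal weights of dry feed, water and shochu distilled water (SDW), and the control group held 4 animals given only the dry feed. Sampling is dated to week 12 of feeding in the design text, but to weeks 14, 15, 16 and 17 for replicates 1, 2, 3 and 4 in the labels. Each animal has 1 single-colour Agilent array, and the 8 arrays lay on 3 slides that each held both diets. The arrays of slide 3 (control 1 and SDW 4) were scanned on a later day than the others. Blood is a mixture of cells, so fewer B cells and less RNA per B cell cannot be told apart in these data.

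Probes were taken as members when the file gave the member as gene name, or its symbol or full name in the description. That found 3 of 43603 probes: 2 for CD72 and 1 for CD40. A further 2 probes carry TNFRSF5, the older symbol of CD40 in RefSeq, without naming CD40 in the description; they are shown beside the others, which makes 5. Both genes are among the 1269 with a symbol and at least 1 probe well above background on 4 or more arrays.

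CD72 is a C-type lectin-like protein that restrains signals from the B cell antigen receptor: its cytoplasmic tail recruits the phosphatase SHP-1, and binding of the semaphorin CD100 relieves the restraint. CD40 belongs to the tumour necrosis factor receptor superfamily. CD40 ligand on activated T cells engages it, TRAF adaptors carry the signal to NF-kB and MAP kinases, and B cells respond with proliferation, class switching and higher costimulatory molecules. CD72 in blood is known mainly from B cells, whereas CD40 is also found on monocytes, dendritic cells and platelets.

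The probe sequences are shown because they set how far the probes are independent readings. All probes are 60 bases long, and positions are those the files give within each probe's own transcript record. The CD72 probe at base 558 (A_72_P197872) shares no run of 10 or more bases with the other probes and is given whole. Of the CD72 probe at base 1365 (A_72_P146971) the last 30 bases are given, with capitals for bases shared with an unnamed probe (A_72_P004461), of which the first 30 are given; in full they share 37 bases.
CD72 base 558: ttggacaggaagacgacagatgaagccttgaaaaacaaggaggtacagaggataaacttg
CD72 base 1365: GGCAGTTTTATTGAAATATTTTTAAATAAa
unnamed probe: GCCAGCCAGGCAGTTTTATTGAAATATTTT

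The 3 CD40 probes form a chain. Those at base 1155 (A_72_P088376, the probe the rule finds) and base 1279 (A_72_P124966) share 14 bases, and those at base 1279 and base 1288 (A_72_P294444) share 51. The last 30 bases of the first and the first 30 of the others follow, with capitals for the bases of the first and second that they have in common and for those of the third that the second also holds. The records behind the first probe and the others are numbered differently, so these positions cannot be subtracted from each other.
CD40 base 1155: tcgtgacagtgagtgaCTGGAAACTGCTTA
CD40 base 1279: CTGGAAACTGCTTAactgtccatcaacagg
CD40 base 1288: GCTTAACTGTCCATCAACAGGGGACTGGCT
The letters AATAAA, the usual polyadenylation signal, stand on the given strand in 3 of the 5 member probes (CD72 base 1365, CD40 bases 1279 and 1288) and in 12.1% of all probes; 4.63% of all probes hold them on the opposite strand. The probes at bases 1279 and 1288, which overlap by 51 bases, are not independent readings.

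Each level is the log2 of a spot's signal minus that of the array's 75th percentile, and precision is limited by there being 4 arrays per diet. Levels of different probes are not set against each other. Background was clearly exceeded on all 8 arrays by 4 of the 5 probes. The CD72 probe at base 558 was not well above background on any array, in 0 of 4 SDW and 0 of 4 control animals, so CD72 is read from the probe at base 1365 alone.

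CD72 varied widely between animals of either diet. Its level was 3.59, 2.39, 1.38 and 3.11 in SDW animals 1 to 4, against 4.03, 2.75, 2.72 and 1.77 in control animals 1 to 4. Control 1 was highest and SDW 3 lowest, a span of 6.25-fold, and the ranges of the diets overlapped. The SD within diets was 0.94, larger than that of 91.3% of the 17355 probes kept for testing, whose median was 0.43. The unnamed probe that shares the end of the CD72 probe followed it across animals (Pearson r = 0.928, Spearman rho = 0.881, n = 8), with SDW 3 again lowest at -3.40 and control 1 highest at 0.26. That probe was well above background in 3 of 4 SDW and 4 of 4 control animals, SDW 3 being the exception.

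CD40 varied less. With the probe at base 1155 its level was 5.16, 5.18, 4.44 and 5.16 in SDW animals 1 to 4, against 5.89, 5.05, 5.66 and 4.91 in control animals 1 to 4. Control 1 and control 3 lay above every SDW animal, SDW 3 lay below all others, and the remaining 5 animals fell between 4.91 and 5.18. The SD within diets was 0.42, close to the median of all kept probes, and the highest animal exceeded the lowest 2.73-fold. The probe at base 1279 read 5.86, 6.06, 5.30 and 6.25 in SDW animals 1 to 4, against 6.58, 5.71, 6.57 and 5.55 in control animals 1 to 4. It kept SDW 3 lowest and controls 1 and 3 highest, while SDW 4 stood nearer to those controls than with the first probe. The probes at bases 1279 and 1288 moved almost as one (r = 0.996, SD of their log2 difference between animals 0.045). The probe at base 1155 correlated with them at 0.941 and 0.920, with SDs of the log2 difference of 0.16 and 0.19.

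**Figure D1:**
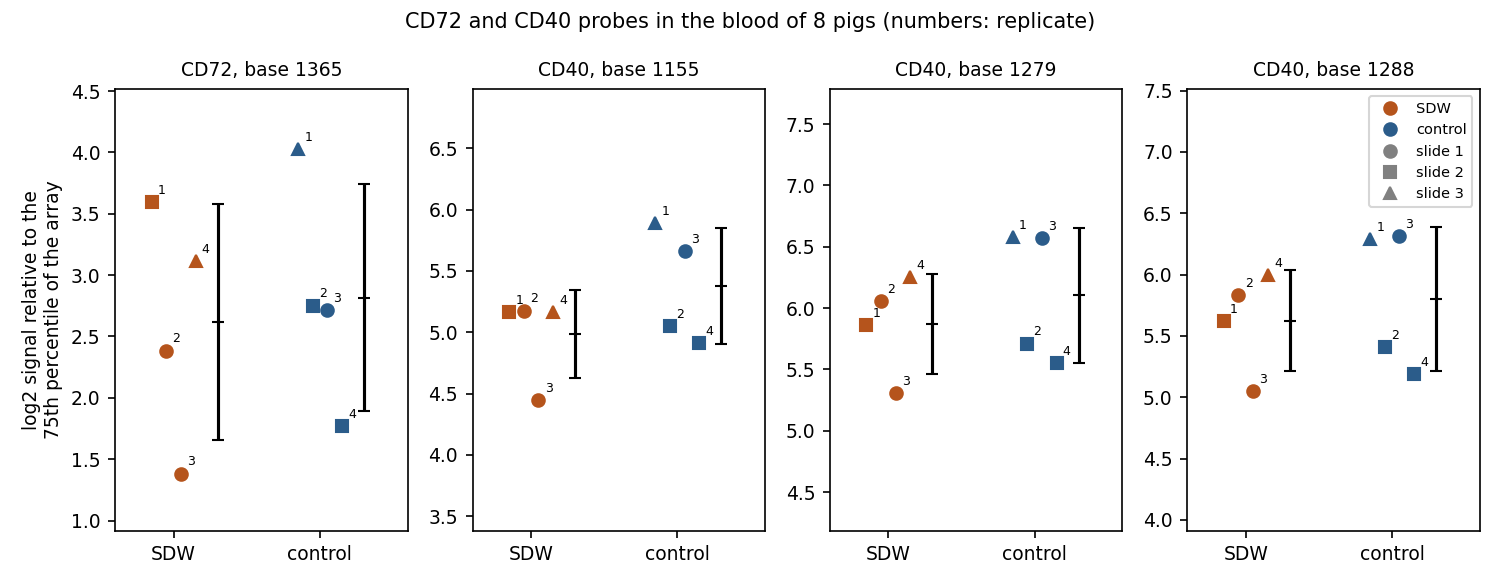
Level of the CD72 probe and the 3 CD40 probes that were well above background, in SDW (left) and control (right) animals; each point is 1 animal, numbered by replicate and shaped by slide, and the bar gives the mean ± SD (n = 4). The vertical axis is log2 relative to the array's 75th percentile and every panel spans the same width; control 1 and SDW 3 mark the ends for CD72 and for CD40 at base 1155.

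The comparison of SDW with control asked whether the feed went with a change of these receptors in blood; neither passed. CD72 averaged 2.62 ± 0.96 in SDW animals and 2.82 ± 0.93 in control animals (SD, n = 4 each). The log2 difference, SDW minus control, was -0.20 ± 0.55 (SE; limma, unadjusted p = 0.729, adjusted p = 1.00 over 17355 probes), with a 95% interval from -1.43 to 1.04. CD40 averaged 4.99 ± 0.36 in SDW animals and 5.38 ± 0.47 in control animals (SD, n = 4 each). Its log2 difference was -0.39 ± 0.30 (SE; limma, unadjusted p = 0.218, adjusted p = 1.00), with an interval from -1.06 to 0.27. Both intervals reach beyond -1 on the log2 scale, so the diets are not shown to be alike.

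The other CD40 probes gave smaller differences of the same sign, -0.23 (base 1279) and -0.17 (base 1288), with intervals from -0.96 to 0.49 and from -0.93 to 0.58. In exact permutation tests over the 70 assignments of 4 of 8 animals, two-sided, CD72 gave p = 0.771 and CD40 at base 1155 gave p = 0.286, where 0.0286 is the smallest p possible. Of all kept probes, limma called 0 at an adjusted p under 0.05 (0%) and 251 at an unadjusted p under 0.05 (1.45%; 0.519% lower and 0.928% higher in SDW animals). A further count, of probes whose SDW animals all lay above or all below the controls, came to 0.985%. Of the 4 member probes above background, 0 met any of these criteria. The median log2 difference over all kept probes was 0.018, and 47.1% of them averaged lower in SDW animals.

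The sign differed between slides, which held few animals each. Slide 1 held SDW 2, SDW 3 and control 3, and slide 2 held SDW 1, control 2 and control 4. Slide 3 held SDW 4 and control 1. At least 1 diet thus had 1 animal on each slide, so slide and animal cannot be told apart. On slides 1, 2 and 3, CD72 in SDW animals minus control animals gave -0.83, 1.33 and -0.91, and CD40 at base 1155 gave -0.85, 0.18 and -0.73. Both receptors were thus lower in SDW animals on slides 1 and 3 and higher on slide 2, as were the other CD40 probes. With slide as a fixed block, CD72 differed by -0.067 (limma, unadjusted p = 0.889) and CD40 by -0.44 (unadjusted p = 0.147). Under that block 0 probes passed after adjustment (0%) and 6.6% of all kept probes had an unadjusted p under 0.05, 3.2% lower and 3.39% higher in SDW animals; 0 of the 4 member probes did. The CD72 difference changed sign without control 1 (0.21), without SDW 3 (0.21) and without both arrays of slide 3 (0.041). Slide held 43.9% of the variance of CD72 and 23.4% of that of CD40, against a median of 44.7% over all kept probes. Slide takes 2 of the 7 degrees of freedom among the animals, for which an even share would be 28.6%. Diet held 1.43% of the variance of CD72 and 22.5% of that of CD40, against a median of 4.97%.

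**Figure D2:**
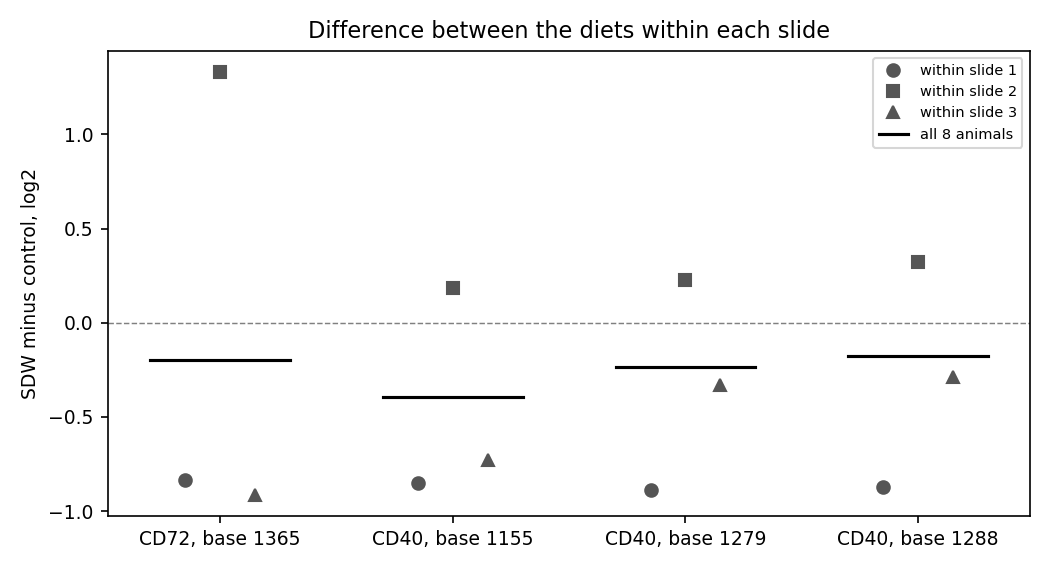
SDW minus control difference on the log2 scale for CD72 and the 3 CD40 probes; symbols give the difference within slides 1 to 3 and the line that over all 8 animals. On slide 2 all 4 probes were higher in SDW animals, and on slides 1 and 3 all were lower. At least 1 diet had 1 animal on each slide.

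CD72 and CD40 had the same highest and the same lowest animal. Over the 8 animals they correlated with r = 0.786 (exact permutation test, two-sided, p = 0.0206; adjusted over 10 probe pairs, 0.0257) and with rho = 0.643 (exact permutation test, p = 0.0962; adjusted, 0.107). The 10 pairs include probes of the same gene and probes that share bases, which correlate closely. The adjusted values are therefore no strict correction for the number of pairs. Without control 1 and SDW 3, the animals farthest from the CD72 median, r came to 0.291, so the size of r depends on those animals. Leaving out the ends of CD72 also narrows its range, which by itself tends to lower r. Within diets r was 0.849 in SDW and 0.840 in control animals (n = 4 each), and each diet holds 1 of those animals. With values centred within slide r was 0.785 (exact permutation test within slides, p = 0.0139, the smallest that the 72 pairings allow), and without slide 3 it was 0.661 (exact permutation test, p = 0.131). With the CD40 probes at bases 1279 and 1288, r over the 8 animals was 0.717 and 0.718. No slide holds enough animals for a value of its own. SDW 1 and control 3 depart from a shared order: SDW 1 was second for CD72 but in the middle for CD40, and control 3 the reverse.

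The genes most like each receptor were taken from the 1268 other named genes by Pearson r over the 8 animals; since they are the highest of many, no p is given. Those of CD40 included DOK3 (r = 0.974), an adaptor that restrains B cell receptor signals, and PRDM1 (0.956), the Blimp-1 repressor that drives plasma cell formation. LTA (0.927), the cytokine lymphotoxin alpha, and ADAM17 (0.916), a sheddase of surface proteins, were also among them. The DOK3 and PRDM1 probes are named only by a match to a homologous protein in another mammal. CD72 had a different set: DOK1 (0.973), another adaptor of the DOK family, NFKBIA (0.930), the inhibitor of NF-kB, OSTF1 (0.928), LIMK1 (0.926), a kinase of the actin cytoskeleton, and FAS (0.925), the death receptor. DOK1 and LIMK1 are likewise named by homology. CD40 ranked 45 for CD72 and CD72 ranked 25 for CD40, where the median r over all named genes was 0.102 for CD72 and 0.144 for CD40. With values centred within slide, the r of DOK3 with CD40 was 0.976 and that of DOK1 with CD72 was 0.959. Without control 1 and SDW 3 they were 0.982 and 0.964. With quantile normalization DOK3 kept 0.970, but DOK1 fell to 0.857. That was below NFKBIA (0.906), OSTF1 (0.916), LIMK1 (0.923) and FAS (0.890). With the deposited value table DOK1 gave 0.854, so its first place depends on the normalization. Genes of the CD40 set also moved with quantile normalization, PRDM1 to 0.911, LTA to 0.828 and ADAM17 to 0.853. Without control 1 and SDW 3 the r of ADAM17 with CD40 was 0.756. Across all 9 genes named here as most like either receptor, the SDW minus control log2 difference lay between -0.29 (PRDM1) and 0.066 (OSTF1), and none passed.

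**Figure D3:**
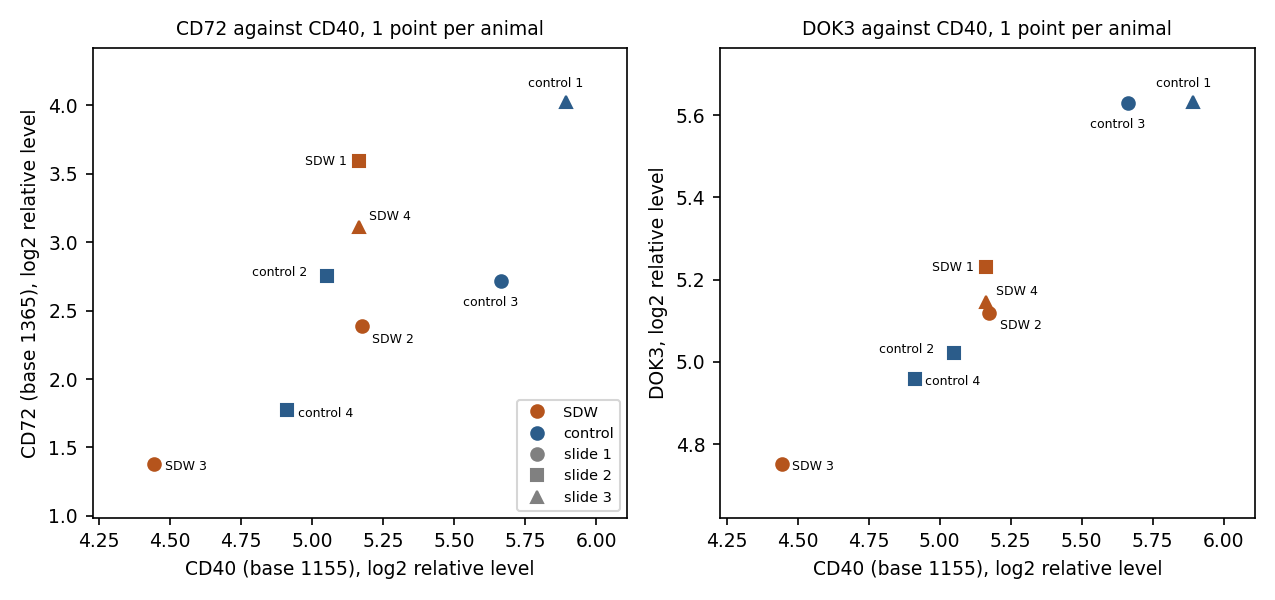
CD72 (left) and DOK3 (right) against CD40 in the 8 animals, all as log2 relative to the array's 75th percentile; colour gives the diet and shape the slide. DOK3 lies close to a line with CD40 (r = 0.974), while the CD72 points scatter more widely between the ends formed by SDW 3 and control 1 (r = 0.786).

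Among other B cell genes, CD180, a Toll-like receptor homologue, read 1.89, 2.18, 2.01 and 1.85 in SDW animals 1 to 4, against 2.20, 2.14, 2.38 and 1.49 in control animals 1 to 4. Control 4 was lowest and control 3 highest, so the SDW animals lay within the range of the controls. Its log2 difference was -0.074 ± 0.25 (SE), and it correlated with CD40 at r = 0.520 and with CD72 at r = 0.303.

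Of the ligand and partners of CD72, 4 of 13 listed genes were measured, 3 lower and 1 higher in the SDW group. Their median log2 difference was -0.059, and none passed. SYK, a kinase of antigen receptor signalling, gave a log2 difference of -0.45 ± 0.30 (SE). With slide as a fixed block it was -0.62 (limma, unadjusted p = 0.0314, adjusted p = 0.731). Under that block 6.6% of all kept probes had an unadjusted p under 0.05. The kinase LYN differed by -0.043, the ubiquitin ligase CBL by -0.075 and the adaptor GRB2 by 0.030; these last 3 are named by homology. SEMA4D and PTPN6 have no named probe here.

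Of the ligand and adaptors of CD40, 2 of 11 were measured. CD40LG has a probe that was below the filter on dim probes and is not reported further. TRAF5, another adaptor, differed by 0.021. TRAF6, which links CD40 to NF-kB, gave a log2 difference of -0.76 ± 0.81 (SE); its level was 3.47 in control 4 and between -0.77 and 0.02 in all other animals.

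In the NF-kB and MAP kinase arm 7 of 21 genes were measured, with 4 lower, 3 higher and a median difference of -0.17. MAPK9, which encodes the kinase JNK2, had the smallest p, with a log2 difference of 0.39 ± 0.22 (SE; limma, unadjusted p = 0.0991), and was higher in SDW animals on all 3 slides. IKBKG, the regulatory subunit of the NF-kB kinase, gave -0.70 ± 0.66 (SE). Its probe exceeded background in 3 of 4 SDW and 4 of 4 control animals. With slide as a fixed block it came to -0.86 (limma, unadjusted p = 0.0299, adjusted p = 0.731). The NF-kB subunit REL, named by homology, gave 0.50 ± 0.59 (SE).

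Of 21 genes known to respond to CD40, 10 were measured, 6 lower and 4 higher, with a median log2 difference of -0.054 and a range from -0.20 to 0.29. They included the cytokine IL10 (0.29), the costimulatory ligand CD86 (-0.20) and LTA (-0.20). Of other receptors of the tumour necrosis factor family, TNFRSF1A differed by -0.32 and TNFRSF1B by 0.29, where 2 further TNFRSF1B probes gave 0.19 and 1.16. No gene of these pathway lists passed an adjusted p of 0.05, and none had an unadjusted p under 0.05 in limma without the block. With the block only SYK and IKBKG did, where 6.6% of all kept probes did.

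**Figure D4:**
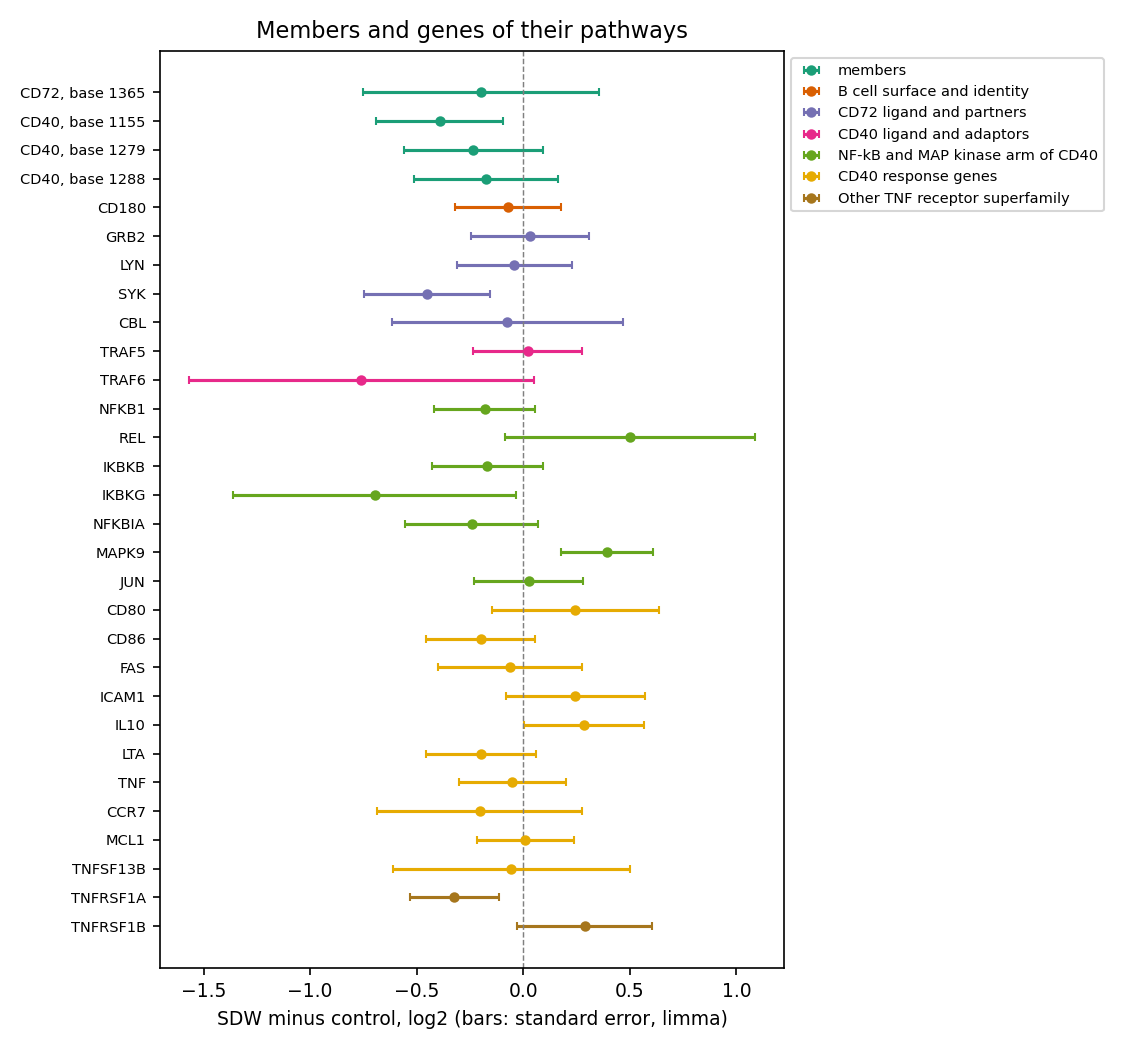
SDW minus control difference on the log2 scale, with its standard error from limma, for the 4 member probes and CD180 and each measured gene of the pathway lists, coloured by list. The bars of most genes cross 0, and the widest belong to TRAF6, IKBKG and REL.

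Markers of other blood cells were read beside the receptors, since CD40 is not restricted to B cells. For each list a mean over its measured genes was taken per animal and centred on 0. Of 14 neutrophil markers 6 were measured, and all 6 averaged lower in SDW animals, with 0 past the adjusted threshold. Their mean ran from -0.60 to 0.13 in SDW animals and from -0.26 to 0.93 in control animals (-0.26 ± 0.34 in SDW animals and 0.26 ± 0.53 in control animals, SD, n = 4 each; exact permutation test, p = 0.143). Of 9 dendritic cell markers 3 were measured, and all 3 averaged lower in SDW animals, with 0 past the adjusted threshold. Their log2 differences were uneven, from -1.16 to -0.20 with a median of -0.48. Their mean ran from -0.73 to 0.27 in SDW animals and from -0.0021 to 0.45 in control animals (-0.31 ± 0.43 in SDW animals and 0.31 ± 0.21 in control animals, SD, n = 4 each; exact permutation test, p = 0.0571). The diets thus overlapped for both lists. The means over 5 monocyte, 6 T cell and 4 platelet markers gave exact permutation p-values of 0.714, 0.714 and 0.600. The monocyte mean joins genes that went opposite ways, 1 lower and 4 higher in SDW animals, with log2 differences from -0.73 to 0.88. Of the T cell markers 3 were lower and 3 higher, and of the platelet markers 1 was lower and 3 higher.

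CD40 correlated with the neutrophil mean at r = 0.820 (exact permutation test, p = 0.0149; adjusted over 10 relations, 0.149) and rho = 0.524. The r came to 0.774 with values centred within slide (exact permutation test within slides, p = 0.306), 0.671 without slide 3 and 0.579 without control 1 and SDW 3. With the monocyte mean the r of CD40 was 0.0884 over all animals, 0.309 with values centred within slide, 0.706 without slide 3 and 0.622 without control 1 and SDW 3. The monocyte value thus depended on a few animals, as the neutrophil value did. With the dendritic cell mean the r of CD40 was 0.168, and under the same 3 alternatives 0.128, -0.0847 and 0.239. With T cell markers it was -0.348, then -0.0277, -0.417 and -0.420, and with platelet markers -0.607, then -0.496, -0.471 and -0.277.

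For CD72 the r with the neutrophil mean was 0.663 over all animals, 0.442 with values centred within slide, 0.322 without slide 3 and 0.170 without control 1 and SDW 3. With the monocyte mean it was -0.0758, then 0.232, 0.403 and 0.123, and with the dendritic cell mean -0.265, then -0.368, -0.640 and -0.631. With T cell markers it was -0.449, then -0.147, -0.330 and -0.533, and with platelet markers -0.608, then -0.351, -0.134 and -0.315. None of the 10 relations over all animals passed after adjustment, the smallest adjusted p being 0.149 (exact permutation tests). The part of neutrophil, monocyte or dendritic cell content in the values of CD40 and CD72 was not tested.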

How the data were processed

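Whole blood RNA of 8 animals (4 SDW, 4 control) was measured on 1 array each; p-values describe the spread between these animals. The authors deposited linear spot intensity from Agilent Feature Extraction (9.5.3.1 in the submitters' processing notes, 10.1.1.1 in the headers). This signal, per the file headers, was background-subtracted and detrended within each array, and other columns hold flags for outliers and for spots well above background. The deposited value table also holds intensity, with normalization not given in the sources used here; 7 of its 8 columns matched the scanner values of a different animal on that diet. Replicates are named by the scanner files' labels.

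After removal of control and outlier spots, the log2 signal minus the array's 75th percentile was fitted on diet with limma 3.58.1 in R 4.3.3 (lmFit, eBayes) for the 17355 probes well above background on at least 4 arrays, with Benjamini-Hochberg adjustment over them and a threshold of 0.05; the code was tested on simulated data. The 75th percentile signal lay between 39.9 and 73.1, and 35.2% to 43.5% of probes were well above background, with 0 saturated. Symbols came from RefSeq accessions (2038 probes), symbols (695), entry names of homologues (431), synonyms (134), gene numbers (120) and descriptions (9), leaving 40176 probes unnamed here. With several kept probes for a gene, the brightest on average was used, except that CD40 was read from the probe the rule finds.

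The members, the 13 lists and the alternatives were chosen with earlier results of these data known. The naming rule took both members, all measured genes of the B cell, CD72 partner and CD40 adaptor lists, up to 3 genes of smallest p in each other list and the 5 genes most like each member; lists of other blood cells are given as means only, and 1 gene the rule took is not reported here. No erythroid gene of the list was named on the array, and the 2 measured cytotoxic cell genes, both lower on average in SDW animals, were under the 3 set for a correlation. Deviations from the diet means of animals sharing a replicate number correlated at -0.17, 0.11, 0.33 and -0.38, so the numbers were not taken as pairs.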

Additional observations from a re-analysis of the deposited data

Results flagged for a closer look

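An animal was singled out when its gap to the nearest of the other 3 in its group, as a share of the range, exceeded Dixon's 95% critical value, which chance gives in about 1 of 20 groups; 56 groups were examined. CD40 at base 1155 in SDW 3 stood at 4.44, the next SDW animal being at 5.16. TRAF6 in control 4 stood at 3.47, the next control at -0.26. REL in control 1 stood at 0.47, the next control at 1.87.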

How the results depend on the processing

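The CD40 difference at base 1155 kept its sign and stayed short of the threshold under every alternative run, from -0.55 without control 4 to -0.21 without SDW 3; the other CD40 probes gave -0.23 (base 1279) and -0.17 (base 1288). That of CD72 turned to 0.0409 without slide 3 and ranged from -0.55 to 0.215 with 1 array left out, and that of the CD40 probe at base 1288 ranged from -0.379 to 0.0176, the highest being without SDW 3. Probes with an unadjusted p under 0.05 in limma numbered 162 with normexp, 823 with no filter on dim probes, 165 when all 8 arrays had to be above background, 632 and 1145 with slide as a random and a fixed block, 542 without slide 3 and 179 to 518 with 1 array left out, against 251. Adjusted calls were 0 except 1 without slide 3, which was no member probe. With the replicate block CD72 differed by -0.20, CD40 by -0.39 and 239 probes had an unadjusted p under 0.05; no call changed. The unadjusted exact permutation p of the correlation of CD72 with CD40 was above 0.05 without slide 3, without control 1 and without SDW 3. The correlation itself was 0.661 without slide 3 and 0.639 to 0.875 with 1 array left out. That of CD72 with monocyte markers turned to 0.232 with values centred within slide, 0.403 without slide 3 and 0.123 without control 1 and SDW 3, and that of CD40 with dendritic cell markers to -0.0847 without slide 3; for the correlations, leaving out slide 3, and with marker lists those animals, was chosen after seeing the data. The causes were not tested. The CD72 probe at base 558 lies at background, which limits CD72 to 1 probe.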
